A study of Mus musculus with 5 samples.

Results

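The 37 genes of the mouse mitochondrial DNA (mtDNA) were followed in RNA from Kupffer cells, the resident macrophages of the liver. They are the rows of the count table whose symbol begins with mt-, 37 of 46983 gene rows, and they comprise 13 mRNAs, 2 rRNAs and 22 tRNAs. Membership rests on the name only, but the set was chosen with earlier results of these data known. Cells lacking Id3 (ID3-/-, 2 libraries, replicates 2 and 3, here called knockout) were compared with cells that keep 1 copy (ID3+/-, 3 libraries, replicates 1 to 3, here called heterozygous). No wild-type group was analysed here. Id3 encodes a helix-loop-helix protein that holds E proteins off DNA. The labels give no promoter or Cre line for the deletion and no strain, age or sex, and the names of all 5 columns carry a "3w" whose meaning is not stated. They do not say that the libraries of a genotype came from separate animals, and the p-values therefore describe no more than the variation among these libraries, which may be technical.

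The mtDNA is a circle read from both strands as long precursor RNAs. One precursor, from the heavy-strand promoter, holds both rRNAs, most tRNAs and every mRNA but mt-Nd6, and the other, from the light-strand promoter, holds mt-Nd6 and the remaining tRNAs. The tRNAs lie between the other genes and are cut out of the precursors, which releases the mRNAs and rRNAs. The mRNAs encode core subunits of respiratory complexes I, III, IV and V, which need many more subunits encoded in the nucleus. Most mitochondrial mRNAs receive a poly-A tail after processing, the rRNAs receive short tails, mature tRNAs end in CCA, and in human cells the mRNA of ND6 has no stable poly-A tail. The libraries here were made from poly-A RNA by template-switching amplification, so counts of rRNAs, tRNAs and mt-Nd6 are those of molecules or precursors that this method captured. Reads that the counting listed as ambiguous were left out. They made up 1.99% and 1.99% of alignments in knockout, against 2.06%, 2.04% and 1.99% in heterozygous libraries. What part of them came from the closely packed mitochondrial genes was not tested.

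The depth ran from 74.8M to 80.9M gene-assigned counts a library. The label check was met: Id3 had 1.01 and 1.42 CPM (normalised read counts, scaled to a common library size) in knockout libraries, against 229, 221 and 256 CPM in heterozygous libraries. Of 10 Kupffer cell markers 1 was higher and 1 lower, and their summed level was 55830 and 49300 CPM in knockout libraries, against 48980, 48170 and 52330 CPM in heterozygous libraries. This sum covers opposite shifts of single markers, 2 of which were named after their values were seen. Marco had 3661 and 3538 CPM in knockout, against 1683, 1531 and 1964 CPM in heterozygous libraries. Cd163 had 238.5 and 217 CPM in knockout, against 517.9, 456.6 and 440.2 CPM in heterozygous libraries. Across all genes, 2698 of 16436 tested (16.4%) passed edgeR's quasi-likelihood test at a Benjamini-Hochberg adjusted p under 0.05, 1054 of them higher and 1644 (10.0%) lower in knockout. After offsets for transcript length and GC content this split became 1121 higher and 849 lower. The median log2 fold change of all genes was -0.02.

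Mitochondrial transcripts took 0.905% and 1.01% of assigned counts in the knockout libraries, against 4.08%, 4.31% and 4.54% in the heterozygous libraries. The groups did not overlap, and the mean share was 4.50-fold lower in knockout. The mRNAs took 0.439% and 0.550% in knockout, against 2.46%, 2.95% and 2.93% in heterozygous libraries, which is 5.62-fold lower. The rRNAs took 0.465% and 0.461% in knockout, against 1.62%, 1.36% and 1.60% in heterozygous libraries, 3.30-fold lower. Summed tRNA counts were 490 and 674 in knockout, against 2019, 1750 and 1890 in heterozygous libraries, and their share was 3.18-fold lower. With 2 libraries against 3, an exact permutation test of such a sum cannot give a p below 0.1, so the sums carry no test. In bulk RNA, fewer cells of a kind that is rich in mitochondrial RNA and less mitochondrial RNA per cell cannot be told apart.

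**Figure D1:**
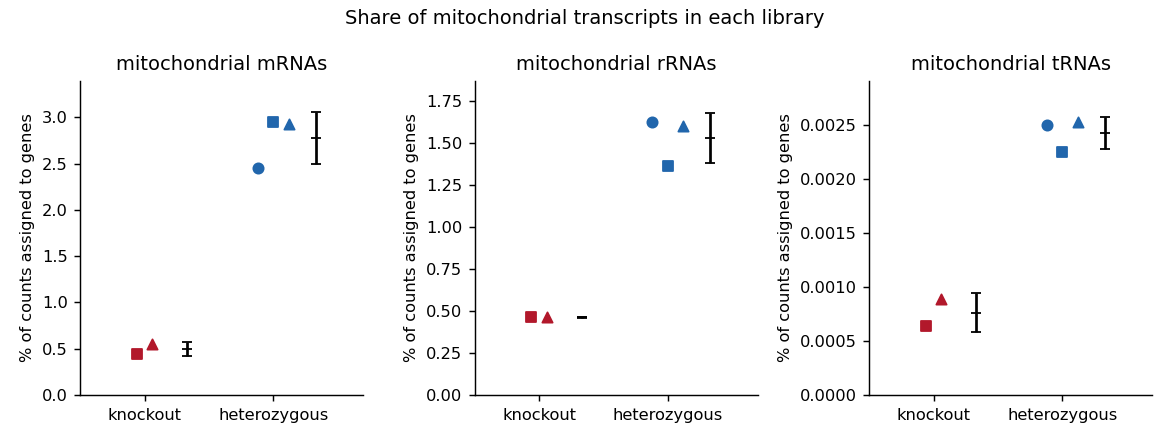
Share of each library's assigned counts (%, y axis) taken by mitochondrial mRNAs, rRNAs and tRNAs, with 1 point per library (circle, square and triangle for replicates 1, 2 and 3) in knockout (red) and heterozygous (blue); black bars give the mean and SD. The y axes differ in scale, and in each panel the 2 knockout points lie under all 3 heterozygous points.

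Counted gene by gene, 20 of the 37 had enough counts to be tested, 15 of the 20 were lower in knockout by edgeR and 0 were higher, where 16.4% of all tested genes passed in either direction and 10.0% passed as lower. The 15 were 6 of 9 tested mRNAs, both rRNAs and 7 of 9 tested tRNAs. The 5 that did not pass were mt-Co3, mt-Nd5, mt-Nd6, mt-Tl2 and mt-Tt. The filter asked for about 10 counts in at least 2 libraries, and for 5 of the 20 (mt-Tl1, mt-Co3, mt-Nd3, mt-Tl2 and mt-Tt) the knockout libraries alone would not have met it, so their entry into the test already leaned toward the heterozygous group. The other 17 genes were not tested: 11 had 0 counts in all 5 libraries (mt-Atp8, mt-Nd4l and 9 tRNAs), and 6 had few (mt-Co2, mt-Atp6, mt-Tf, mt-Tv, mt-Tr and mt-Ts2). Knockout and heterozygous libraries did not overlap for 18 of the 20, against 51.6% of all tested genes.

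**Figure D2:**
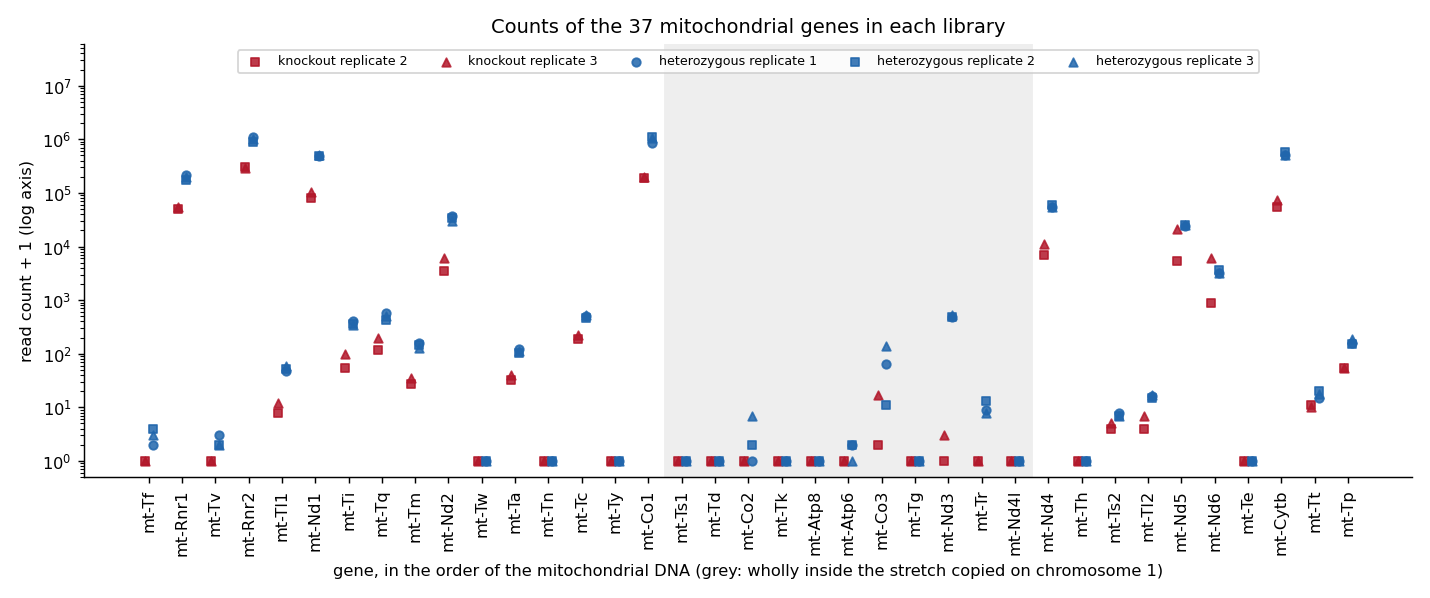
Read count plus 1 (log axis) of each of the 37 genes, along the x axis in mtDNA order, with knockout libraries in red and heterozygous libraries in blue. Within the grey stretch, which is duplicated on chromosome 1, counts stayed at or under 536 in every library, while mt-Nd1, mt-Co1, mt-Cytb and the rRNAs outside it lie far above it.

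Complex I takes electrons from NADH, and 7 mitochondrial mRNAs encode its membrane-bound core. mt-Nd1 had 1066 and 1344 CPM in knockout, against 6012, 6306 and 6930 CPM in heterozygous libraries. It was lower in knockout by a log2 fold change of -2.41 ± 0.13 (SE; edgeR adjusted p = 0.00196). mt-Nd2 had 46.2 and 79.3 CPM in knockout, against 442, 438 and 419 CPM in heterozygous libraries (log2 fold change -2.79 ± 0.24, edgeR adjusted p = 0.00442). For both genes every knockout library lay under every heterozygous library, and knockout replicate 3 was the higher of the knockout pair. mt-Nd4 had 93.3 and 144 CPM in knockout, against 673, 738 and 736 CPM in heterozygous libraries (-2.59 ± 0.20, edgeR adjusted p = 0.00369). mt-Nd4l, which lies directly before mt-Nd4 and shares 7 bases with it, had 0 counts in every library.

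Complex III passes electrons to cytochrome c, and mt-Cytb encodes the cytochrome b at its core. mt-Cytb had 718 and 941 CPM in knockout, against 6149, 7358 and 6935 CPM in heterozygous libraries. The groups were far apart, and knockout averaged 12.2% of the heterozygous level (log2 fold change -3.04 ± 0.16, edgeR adjusted p = 0.00196). Complex IV reduces oxygen, and mt-Co1 encodes its catalytic subunit. mt-Co1 had 2497 and 2525 CPM in knockout, against 10570, 13850 and 14700 CPM in heterozygous libraries. It fell by 2.38 ± 0.16 on the log2 scale (edgeR adjusted p = 0.00288), with knockout libraries close to each other and heterozygous replicate 1 the lowest of its group. mt-Co3, another core subunit, had 1 and 16 counts in knockout, against 62, 10 and 137 counts in heterozygous libraries. Its groups overlapped and it did not pass (-3.04 ± 1.44, edgeR adjusted p = 0.199). mt-Co2, which encodes the subunit that receives electrons from cytochrome c, had 0 and 0 counts in knockout, against 0, 1 and 6 in heterozygous libraries. The subunits of ATP synthase, complex V, were also almost without counts: mt-Atp6 had 0 and 0 in knockout, against 1, 1 and 0 in heterozygous libraries, and mt-Atp8 had 0 in all.

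The rRNAs build the small (mt-Rnr1, 12S) and large (mt-Rnr2, 16S) subunits of the mitochondrial ribosome. mt-Rnr1 had 661 and 701 CPM in knockout, against 2632, 2229 and 2687 CPM in heterozygous libraries (log2 fold change -1.88 ± 0.11, edgeR adjusted p = 0.00223). mt-Rnr2 had 4109 and 3810 CPM in knockout, against 13380, 11170 and 13760 CPM in heterozygous libraries (-1.69 ± 0.12, edgeR adjusted p = 0.00291). Neither rRNA overlapped between the groups. Counts of mt-Rnr2 per count of mt-Rnr1 were 6.21 and 5.43 in knockout, against 5.08, 5.01 and 5.12 in heterozygous libraries.

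tRNAs carry amino acids to that ribosome, and their counts were low throughout, at 583 or fewer in any library. Of the 22, 9 had 0 counts in every library (mt-Tw, mt-Tn, mt-Ty, mt-Ts1, mt-Td, mt-Tk, mt-Tg, mt-Th and mt-Te) and 9 were tested, 5 from the heavy-strand promoter and 4 from the light-strand promoter. The heavy-strand-promoter tRNAs that passed were mt-Tl1, mt-Ti and mt-Tm, and the tested light-strand-promoter tRNAs, mt-Tq, mt-Ta, mt-Tc and mt-Tp, all passed. The median log2 fold change was -2.18 over the 5 and -1.63 over the 4, and the difference between the strands was not tested. The split follows the annotated strand, and the sources used here do not give whether the counting used strand. Reads of the opposite precursor over these genes therefore cannot be told apart from their own. The genes for isoleucine (mt-Ti) and glutamine (mt-Tq) tRNA lie side by side on opposite strands of chrM (mt-Ti chrM:3706-3774, plus strand; mt-Tq chrM:3772-3842, minus strand; GENCODE M21, GRCm38). They are shown because their ends share 3 bases, given in capitals, while their RNAs come from opposite promoters.
mt-Ti: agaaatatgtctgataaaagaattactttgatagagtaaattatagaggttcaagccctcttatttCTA
mt-Tq: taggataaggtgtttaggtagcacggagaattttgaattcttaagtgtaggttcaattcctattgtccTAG
mt-Ti had 52 and 96 counts in knockout, against 410, 355 and 341 in heterozygous libraries (log2 fold change -2.29 ± 0.35, edgeR adjusted p = 0.0144). mt-Tq had 117 and 198 counts in knockout, against 583, 427 and 494 in heterozygous libraries (-1.64 ± 0.31, edgeR adjusted p = 0.0226). Both had non-overlapping groups, with knockout replicate 2 the lowest library for each.

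Among the remaining heavy-strand-promoter tRNAs, mt-Tm (methionine) had 26 and 35 counts in knockout, against 155, 145 and 125 in heterozygous libraries (-2.18 ± 0.38, edgeR adjusted p = 0.0194). mt-Tl1, a leucine tRNA next to mt-Rnr2, had 7 and 11 counts in knockout, against 46, 50 and 58 in heterozygous libraries (-2.48 ± 0.59, edgeR adjusted p = 0.0384). The other leucine tRNA, mt-Tl2, had 3 and 6 counts in knockout, against 15, 14 and 16 in heterozygous libraries (-1.69 ± 0.74, edgeR adjusted p = 0.17). All 3 had separate groups, though mt-Tl2 did not pass. mt-Tt (threonine) had 10 and 9 counts in knockout, against 14, 19 and 17 in heterozygous libraries (-0.78 ± 0.64, edgeR adjusted p = 0.457). Of the tRNAs too low to test, mt-Tf (phenylalanine) had 0 and 0 counts in knockout, against 1, 3 and 2 in heterozygous libraries, and mt-Tv (valine) 0 and 0, against 2, 1 and 1. mt-Ts2 (serine) had 3 and 4 counts in knockout, against 7, 6 and 6 in heterozygous libraries. These counts are too few for a fold change to be read from them.

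Of the other light-strand-promoter tRNAs, mt-Tc (cysteine) had 189 and 223 counts in knockout, against 501, 465 and 523 in heterozygous libraries (-1.25 ± 0.23, edgeR adjusted p = 0.0214). mt-Tp (proline) had 52 and 53 counts in knockout, against 158, 153 and 189 in heterozygous libraries (-1.64 ± 0.35, edgeR adjusted p = 0.03). mt-Ta (alanine) had 31 and 39 counts in knockout, against 119, 100 and 111 in heterozygous libraries (-1.62 ± 0.40, edgeR adjusted p = 0.0419). All 3 had separate groups, and mt-Tc had the smallest fold change of the 15 genes that passed. The tRNA calls depended on single libraries: 1 of the 7 passed when knockout replicate 2 was left out, 4 when knockout replicate 3 or heterozygous replicate 3 was, and 0 when heterozygous replicate 1 or heterozygous replicate 2 was, with the direction kept each time. The 6 mRNAs and both rRNAs passed in each of these 5 fits.

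**Figure D3:**
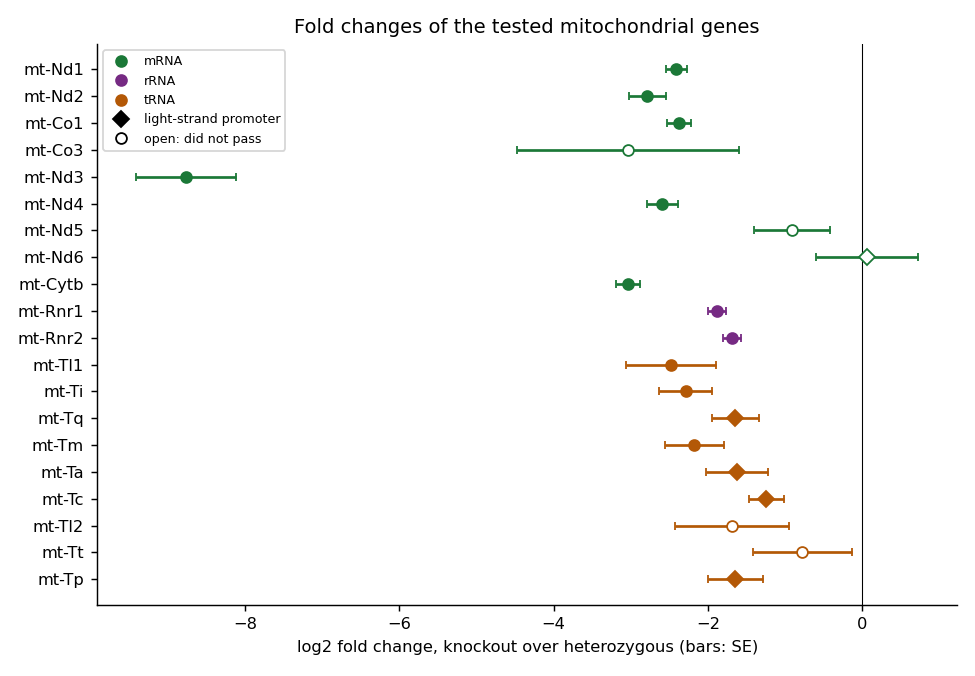
log2 fold change of the 20 tested genes, knockout over heterozygous (x axis, bars give the SE), ordered by RNA class and then by mtDNA position. Filled symbols passed edgeR's test at an adjusted p under 0.05, open symbols did not, and diamonds mark genes of the light-strand promoter; mt-Nd3 at -8.77 stands apart from the other filled symbols, which lie between -3.04 and -1.25.

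mt-Nd3, a small core subunit of complex I, was the extreme value and needs its nuclear copy beside it. The gene had 0 and 2 counts in knockout, against 474, 480 and 536 in heterozygous libraries (log2 fold change -8.77 ± 0.65, edgeR adjusted p = 0.00336). From summed counts the heterozygous level was 487 times the knockout level, with a 95% interval of 134.5 to 4022 for counting error only. Chromosome 1 carries Gm28438, a pseudogene that matches mt-Nd3 over 345 of its 348 bases with 99.7% identity. Their first 60 bases are shown (mt-Nd3 chrM:9459-9518, plus strand; Gm28438 chr1:24613060-24613119, minus strand; GENCODE M21, GRCm38), with the single differing base in capitals. Counted from 1 at the 5′ end of mt-Nd3, it is T3C (mt-Nd3 base first).
mt-Nd3: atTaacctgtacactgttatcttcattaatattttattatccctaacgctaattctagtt
Gm28438: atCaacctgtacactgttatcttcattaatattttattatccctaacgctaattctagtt
Gm28438 had 133 and 191 counts in knockout, against 1, 0 and 5 in heterozygous libraries (log2 fold change 6.25 ± 1.01, edgeR adjusted p = 0.0165). It was counted almost only in the libraries where mt-Nd3 was not, and it met the filter for testing through the knockout libraries alone.

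mt-Nd3 made up 0% and 1.04% of the counts of the gene and its copy in knockout libraries, against 99.8%, 100% and 99.1% in heterozygous libraries. The exact 95% (Clopper-Pearson) intervals were 0% to 2.74% and 0.126% to 3.69% in knockout, against 98.8% to 99.99%, 99.2% to 100% and 97.9% to 99.7% in heterozygous libraries, for counting error only. The sum of both genes was 133 and 193 counts in knockout, against 475, 480 and 541 in heterozygous libraries. With the nuclear copies added to their mitochondrial genes, a setting chosen after seeing the data, mt-Nd3 fell by 1.59 ± 0.27 on the log2 scale (edgeR adjusted p = 0.0185), within the range of the other tested genes. The fold change of mt-Nd3 thus depended on whether its copy was counted with it. Which base the animals' own mtDNA carries at this position was not tested.

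**Figure D4:**
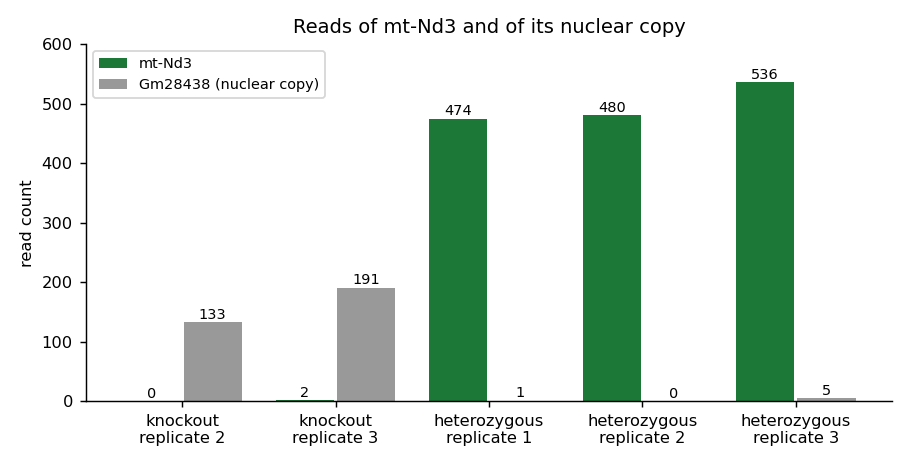
Read counts (y axis) of mt-Nd3 (green) and of its nuclear copy Gm28438 (grey) in each library. In the 2 knockout libraries nearly all counts fall on Gm28438 (133 and 191), and in the 3 heterozygous libraries nearly all fall on mt-Nd3 (474 to 536).

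Gm28438 belongs to a row of 7 pseudogenes on chromosome 1 (chr1:24611535-24616197, minus strand, 4663 bases, GENCODE M21, GRCm38) that matches bases 6390 to 11042 of the mtDNA. The mtDNA stretch holds 11 of the 37 genes whole: mt-Co2, mt-Atp8, mt-Atp6, mt-Co3, mt-Nd3 and mt-Nd4l among the mRNAs, and mt-Ts1, mt-Td, mt-Tk, mt-Tg and mt-Tr among the tRNAs. These 11 summed to 1 and 18 counts in knockout, against 545, 504 and 686 in heterozygous libraries. The other 26 summed to 699692 and 766193 counts in knockout, against 3303480, 3352209 and 3392839 in heterozygous libraries. mt-Tr (arginine) alone among the 5 tRNAs had counts, 0 and 0 in knockout, against 8, 12 and 7 in heterozygous libraries.

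Over the aligned bases, mt-Co2, mt-Atp6, mt-Co3 and mt-Nd4l are 100% identical to their copies on chromosome 1. The counting set aside reads that aligned to more than 1 place, and these made up 32.3% and 34.1% of alignments in knockout, against 38.3%, 39.3% and 41.0% in heterozygous libraries. What part of them came from this stretch was not tested, and the low counts of its genes are no measure of their RNA. For mt-Nd4, the first 876 bases are also identical to a copy (Gm28439, 0 counts in every library), so its counts can be unique in the remainder only. Of the 10 pseudogene copies that were tested, 6 were lower in knockout, 3 did not pass and Gm28438 was higher, where 16.4% of all tested genes passed and 10.0% passed as lower. Among the 6, Gm29216 had 0 and 3 counts in knockout, against 57, 35 and 60 in heterozygous libraries. For it, and for Gm28661, Gm4076 and Gm43743, which did not pass, the knockout libraries alone would not have met the filter. Their entry into the test therefore already leaned toward the heterozygous group. Gm13340, the chromosome 2 copy of mt-Co1, had 368 and 424 counts in knockout, against 1643, 1875 and 1873 in heterozygous libraries (-2.16 ± 0.18, edgeR adjusted p = 0.00412). Gm28437, the chromosome 1 copy of mt-Co3, had 23 and 14 counts in knockout, against 318, 255 and 283 in heterozygous libraries (-3.91 ± 0.39, edgeR adjusted p = 0.00677). With the copies joined, mt-Co3 passed as lower too (-3.69, edgeR adjusted p = 0.0073). These copies were named after their values were seen.

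mt-Nd5 and mt-Nd6, neighbouring complex I genes on opposite strands, departed from the rest of the mRNAs. Their last 60 bases (mt-Nd5 chrM:13506-13565, plus strand; mt-Nd6 chrM:13552-13611, minus strand; GENCODE M21, GRCm38) show the 14 bases they share at their ends in capitals. The sources used here do not give whether the counting used strand, so reads from 1 gene and antisense reads of its neighbour's strand cannot be told apart.
mt-Nd5: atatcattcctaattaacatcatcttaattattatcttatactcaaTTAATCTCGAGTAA
mt-Nd6: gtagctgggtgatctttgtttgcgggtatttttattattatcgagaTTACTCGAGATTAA
mt-Nd5 had 72.0 and 269 CPM in knockout, against 295, 317 and 351 CPM in heterozygous libraries. Knockout replicate 2 was low and knockout replicate 3 lay just under the heterozygous libraries, and the gene did not pass (-0.91 ± 0.50, edgeR adjusted p = 0.26). mt-Nd6 had 11.8 and 78.0 CPM in knockout, against 39.6, 45.5 and 44.1 CPM in heterozygous libraries. The knockout libraries enclosed the heterozygous ones, and the fold change was 0.06 ± 0.66 (edgeR adjusted p = 0.964).

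Both values turned on 1 library. Without knockout replicate 3, mt-Nd5 was lower in knockout by -2.15 (edgeR adjusted p = 0.00217) and mt-Nd6 by -1.85 (edgeR adjusted p = 0.00453). Without knockout replicate 2, mt-Nd5 gave -0.26 and did not pass (edgeR adjusted p = 0.296), while mt-Nd6 was higher in knockout by 0.86 (edgeR adjusted p = 0.0319). In these fits the lone knockout library is assumed to vary like the heterozygous ones. mt-Nd1, mt-Nd2, mt-Nd4, mt-Co1 and mt-Cytb showed no such gap, since their knockout libraries lay closer to each other than to any heterozygous library. In knockout replicate 3, mt-Nd5 had 20826 and mt-Nd6 6040 counts. Of the nuclear copies of this pair, Gm4076 had 8 and 12 counts in knockout, against 19, 20 and 28 in heterozygous libraries. Gm11407 had 0 and 0 counts in knockout, against 0, 3 and 0 in heterozygous libraries. Gm11408 had 0 and 1, against 1, 0 and 2. The part of the copies in the gap between the knockout libraries was not tested.

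The composition of the mitochondrial pool was compared next, by fitting edgeR with the summed counts of the 13 mRNAs as the library size. On this scale 86.2% of all tested genes passed, because nearly every nuclear gene stood higher against a pool that was smaller in knockout. Nothing is therefore read from the count of 7 of 20 members that passed. With so many genes passing, the adjustment is slight near the threshold, and adjusted p-values there lie close to unadjusted ones. mt-Nd5 took 1.599% and 5.001% of mitochondrial mRNA counts in knockout, against 1.22%, 1.09% and 1.17% in heterozygous libraries (relative log2 fold change 1.51 ± 0.40, edgeR adjusted p = 0.00692). mt-Nd6 took 0.263% and 1.45% in knockout, against 0.164%, 0.157% and 0.146% in heterozygous libraries (2.46 ± 0.56, edgeR adjusted p = 0.00332). Both knockout libraries lay above all heterozygous libraries for both genes, replicate 3 far above. Without knockout replicate 3 the relative log2 fold change of mt-Nd5 was 0.47 and did not pass (edgeR adjusted p = 0.0836), and that of mt-Nd6 was 0.76 and passed (edgeR adjusted p = 0.0251).

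mt-Cytb took 15.9% and 17.5% of mitochondrial mRNA counts in knockout, against 25.4%, 25.3% and 23.0% in heterozygous libraries (relative log2 fold change -0.56 ± 0.17, edgeR adjusted p = 0.0148). This call was lost when any 1 heterozygous library was left out and when mt-Co1 was taken out of the sum. mt-Nd1 took 23.7% and 24.98% in knockout, against 24.9%, 21.7% and 23.0% in heterozygous libraries, and did not pass on the relative scale (0.07 ± 0.17, edgeR adjusted p = 0.703, and -0.25 with all 37 genes as denominator). mt-Co1 took 55.4% and 46.9% in knockout, against 43.7%, 47.7% and 48.8% in heterozygous libraries (0.13 ± 0.17, edgeR adjusted p = 0.481, and -0.20 with all 37 genes). For mt-Nd1 and mt-Co1 the groups overlapped.

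**Figure D5:**
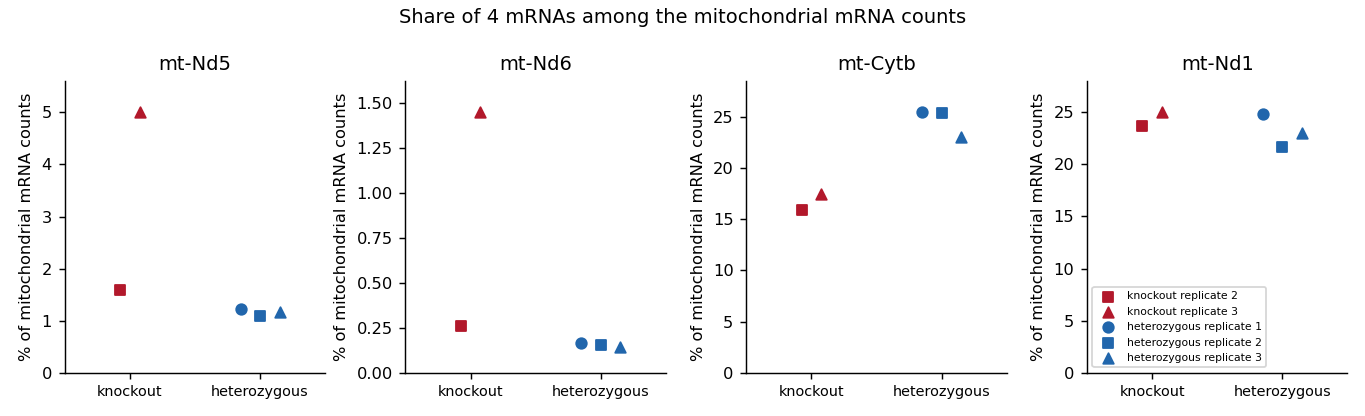
Share of mitochondrial mRNA counts (%, y axis) of mt-Nd5, mt-Nd6, mt-Cytb and mt-Nd1 in knockout (red) and heterozygous (blue) libraries, with circle, square and triangle for replicates 1, 2 and 3. Knockout points are above the heterozygous ones for mt-Nd5 and mt-Nd6 (replicate 3 at 5.001% and 1.45%), under them for mt-Cytb, and among them for mt-Nd1.

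The rRNAs stood higher in knockout when set against the mRNAs. Counts of both rRNAs per count of the mRNAs were 1.06 and 0.838 in knockout, against 0.662, 0.461 and 0.546 in heterozygous libraries, with no overlap. Relative to the summed mRNAs, mt-Rnr2 was higher in knockout by 0.80 ± 0.21 (edgeR adjusted p = 0.00747) and mt-Rnr1 by 0.60 ± 0.20 (edgeR adjusted p = 0.0219). The relative call of mt-Rnr1 was lost when knockout replicate 2, heterozygous replicate 2 or heterozygous replicate 3 was left out, and when all 37 genes, rRNAs included, served as the denominator. That of mt-Rnr2 was kept in every fit that left out 1 library. Of the 9 tested tRNAs only mt-Tc passed as higher against the mRNAs (1.24 ± 0.29, edgeR adjusted p = 0.00375), and mt-Nd3, with its copy uncounted, passed as lower (-6.42 ± 0.79, edgeR adjusted p = 8.7e-05).

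Levels per length differed widely between mitochondrial genes, also among those of the heavy-strand precursor. In CPM per kilobase, mt-Rnr2 stood at 2503 in knockout and 8072 in heterozygous libraries, mt-Co1 at 1625 and 8441, mt-Nd1 at 1259 and 6704, and mt-Cytb at 725 and 5956. mt-Rnr1 followed with 713 in knockout and 2634 in heterozygous libraries. mt-Nd5 (93.5 in knockout, 176 in heterozygous), mt-Nd6 (86.58 and 82.98) and mt-Nd2 (60.5 and 417) were lower. mt-Nd4 is not set among them, because much of its length matches its copy exactly, and bases 1063 to 1545 of mt-Co1 match a copy at 99.8%, so its level per length may be understated. In knockout mt-Rnr2 was thus the highest per length, and in heterozygous libraries mt-Co1 and mt-Rnr2 lay within each other's spread. In knockout mt-Nd5, mt-Nd6 and mt-Nd2 cannot be ordered, given the gap between the knockout libraries.

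Base composition was examined because the mitochondrial genes that passed, at 27.5% to 44.9% GC, lie under the median of tested genes of 49.9%. The lowest of 4 equal groups of genes by GC content had a median log2 fold change of -0.44. With offsets for length and GC all 15 genes still passed as lower. The 14 other than mt-Nd3 had log2 fold changes of -2.80 to -1.01. Fold changes of the rRNAs and of the mRNAs that passed became smaller, such as mt-Rnr2 from -1.69 to -1.01 and mt-Cytb from -3.04 to -2.57. The tRNAs that passed moved either way, mt-Ti from -2.29 to -2.09 and mt-Tl1 from -2.48 to -2.80.

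The nuclear genes for the same respiratory complexes were counted beside them. Of 76 nuclear subunits of complexes I to V, 9 were higher and 1 lower in knockout (10 of 76, against 16.4% of all tested genes), with a median log2 fold change of 0.31, and their summed level was 11320 and 11760 CPM in knockout, against 9412, 9133 and 10590 CPM in heterozygous libraries. Cox4i1, a complex IV subunit, had 469 and 521 CPM in knockout, against 325, 322 and 370 CPM in heterozygous libraries (0.55 ± 0.10, edgeR adjusted p = 0.022). Uqcrq of complex III had 136 and 181 CPM in knockout, against 87.8, 84.0 and 103 CPM in heterozygous libraries (0.79 ± 0.15, edgeR adjusted p = 0.024). Ndufa11 (0.61 ± 0.13, edgeR adjusted p = 0.0307) and Ndufb9 (0.54 ± 0.12, edgeR adjusted p = 0.0337) of complex I rose, and Ndufs1, the subunit that carries several of its iron-sulfur clusters, was the 1 that fell (-0.44 ± 0.10, edgeR adjusted p = 0.0337). No subunit of complex II, which has no mitochondrial gene, and none of complex V passed. These counts are unstable: 0 of the 76 passed when knockout replicate 3, heterozygous replicate 1 or heterozygous replicate 2 was left out, 2 when knockout replicate 2 was, and 22 when heterozygous replicate 3 was.

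Of 40 tested nuclear genes that transcribe, replicate, process or degrade mitochondrial nucleic acids, 3 were higher and 8 lower in knockout (over all tested genes 16.4% passed, 10.0% as lower), with a median log2 fold change of -0.18. Pnpt1, the polynucleotide phosphorylase of mitochondria, had 4.17 and 4.04 CPM in knockout, against 13.6, 16.1 and 10.9 CPM in heterozygous libraries (-1.72 ± 0.23, edgeR adjusted p = 0.0106). Mterf2, of the mitochondrial transcription terminator family, had 0 and 0 counts in knockout, against 29, 43 and 16 in heterozygous libraries. This makes it at least 9.49-fold lower in knockout (floor set to 3 counts in each library). It met the filter through the heterozygous libraries alone, so its entry into the test leaned toward that group. Its family member Mterf3 (-0.66 ± 0.16, edgeR adjusted p = 0.0419) and Mgme1, a mitochondrial exonuclease (-0.70 ± 0.17, edgeR adjusted p = 0.0432), also fell. Fastk (0.57 ± 0.09, edgeR adjusted p = 0.0159) and Fastkd3 (0.82 ± 0.16, edgeR adjusted p = 0.0251), of the FASTK family of mitochondrial RNA-binding proteins, rose. Polrmt, the mitochondrial RNA polymerase, averaged 38.1 ± 4.50 CPM in knockout (SD, 2 libraries) and 40.5 ± 2.52 CPM in heterozygous libraries (SD, 3 libraries), with overlapping groups (-0.09 ± 0.12, edgeR adjusted p = 0.684). Polg, the mtDNA polymerase, did not pass either (0.16 ± 0.10, edgeR adjusted p = 0.323). Without heterozygous replicate 1 or heterozygous replicate 2 only 1 of the 40 passed, 3 passed without knockout replicate 2, and 5 without knockout replicate 3. Of 10 regulators of mitochondrial biogenesis, Esrra was higher (0.36 ± 0.09, edgeR adjusted p = 0.0414) and Ppara lower (-2.25 ± 0.33, edgeR adjusted p = 0.0136).

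Markers of other liver cells moved with genotype beside the mitochondrial transcripts. For the counts that follow, 16.4% of all tested genes passed and 10.0% passed as lower. Of 20 hepatocyte markers 15 were lower in knockout and 0 higher, with a median log2 fold change of -1.68, and none was at 0 in all libraries. Their summed level was 5692 and 13000 CPM in knockout, against 29610, 32700 and 27170 CPM in heterozygous libraries. Alb, the albumin gene, had 1718 and 4292 CPM in knockout, against 10910, 11790 and 9238 CPM in heterozygous libraries. Ppara, too, is a gene known for high expression in hepatocytes. Of 8 tested neutrophil markers 5 were higher, with summed levels of all 11 of 230 and 41.4 CPM in knockout, against 14.5, 12.9 and 13.2 CPM in heterozygous libraries. For Ngp and Cxcr2 the heterozygous libraries alone would not have met the filter, so their entry leaned toward knockout. Ngp, Ltf and Camp had 78.3, 40.5 and 17.6 CPM in knockout replicate 2, against 0.465, 0 and 0.0517 CPM in knockout replicate 3. These markers were named after their values were seen. Of 8 markers of sinusoidal endothelium 4 were lower, with sums of 952 and 885 CPM in knockout, against 1168, 1065 and 994 CPM in heterozygous libraries, and 3 of 6 stellate cell and fibroblast markers were lower. Markers of cholangiocytes, T and NK cells, B cells and erythroid cells gave 0 calls by edgeR. The hepatocyte sum, like the mitochondrial share, was lower in both knockout libraries than in any heterozygous library. Knockout replicate 3 was the higher of its pair in both, at 13000 against 5692 CPM and at 1.01% against 0.905%. Among heterozygous libraries, replicate 3 had the lowest hepatocyte sum (27170 CPM) and the highest mitochondrial share (4.54%). The part of these markers in the mitochondrial result was not tested.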

How the data were processed

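Read counts per gene, 1 column per library, are the values the authors deposited. HTSeq 0.5.4, DESeq 1.18.0, R 3.1.2 and the build mm9 are named per the submitters' processing notes, and the sources used here do not give the aligner or whether strand was used. The gene ID versions of all 37 members match GENCODE M21 (GRCm38), which postdates mm9, and the counting build is therefore uncertain. Coordinates and sequences are those of GENCODE M21. Per the labels' protocols, liver was disrupted through a 100 µm filter, and 10 ng of SMART-seq V4 cDNA was made into libraries with 8 PCR cycles, without molecular barcodes. Entries that name no gene (40.0% and 42.8% of all entries in knockout, against 47.0%, 47.5% and 48.6% in heterozygous libraries) were left out. No 2 libraries agreed within sampling noise.

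All 5 libraries entered 1 comparison of the genotypes without covariates. It used edgeR 4.0.16 under R 4.3.3, with its quasi-likelihood test after filterByExpr and TMM scaling, and Benjamini-Hochberg adjustment over 16436 genes with a threshold of 0.05. The common biological coefficient of variation was 0.339. CPM values are TMM-normalised, and the SE is the log2 fold change divided by the square root of F. The relative fit replaces the library size with the summed mitochondrial mRNA counts. Nuclear copies are annotated pseudogenes with at least 90% identity over at least 40 bases (BLAST+ 2.17.0), 16 copies for 12 members. Members and lists were chosen with earlier results of these data known. All 37 members are named, Id3 as the check of the labels, and in each list up to 3 passing genes with the smallest p and 2 others with the highest level, of which the text gives some. Alternatives were limma-voom (limma 3.58.1), DESeq2 1.42.0, other scalings and filters, length and GC offsets, a replicate block, other denominators and leaving out each library. Joining the copies, and a denominator without mt-Nd5 and mt-Nd6, were added after seeing the data.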

Additional observations from a re-analysis of the deposited data

How the results depend on the processing

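All 15 mitochondrial genes that passed kept their direction in every alternative that tested them. They all passed under DESeq2, RLE, upper-quartile and library-size scaling, robust fitting, scaling without the mitochondrial genes, and length and GC offsets; limma-voom lost mt-Tl1, a filter of 1 CPM in 2 libraries left it untested, and no filter lost mt-Tl1 and mt-Ta. Whether the replicate numbers pair the libraries is not known. Across genes, the differences between replicates 2 and 3 of the 2 genotypes correlated at -0.05, and 2 pairs are too few to settle it. A replicate block on replicates 2 and 3 leaves 1 residual degree of freedom; with it 1 gene in all passed, with 0 calls among mitochondrial mRNAs, 0 among rRNAs, 0 among tRNAs, 0 among nuclear subunits and 0 among expression factors, and 3437 genes were under an unadjusted p of 0.05. DESeq2 called 4581 genes. Leaving out 1 library gave 335 (without heterozygous replicate 2) to 2540 calls over all genes, 463 without heterozygous replicate 1 and 903 without knockout replicate 2; 0 to 4 calls among tRNAs; 0 to 22 among nuclear subunits; and 1 to 10 among expression factors. Nuclear subunits gave 22 calls under upper-quartile scaling and 27 with the 1 CPM filter. With all counted entries as denominator the log2 ratio of summed rRNAs was -1.56 and of all mitochondrial genes -2.01, against -1.72 and -2.17; the tRNA ratio was -1.94 to -1.45 with 1 library left out. The cause of these shifts was not tested.

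The fold change of mt-Nd6 changed sign to -0.49 with limma-voom and -0.55 with the block, and ran from -1.85 to 0.86 with 1 library left out. On the relative scale no gene that passed changed sign; the block lost the relative calls of mt-Rnr1 (edgeR adjusted p = 0.0655), mt-Rnr2 (0.0768) and mt-Cytb (0.201) and kept the other 4. Among those that did not pass, mt-Tl1 was 0.10 without mt-Co1 and 0.033 without mt-Nd5 and mt-Nd6 in the sum, and with all 37 genes as denominator mt-Nd1 was -0.25, mt-Ti -0.14, mt-Tm -0.031 and mt-Co1 -0.20. With 1 library left out, relative values ran from -0.21 to 0.15 for mt-Tl1, -0.17 to 0.42 for mt-Ti, -3.44 to 0.24 for mt-Co3 and -0.32 to 0.051 for mt-Nd4. The low counts of the tRNAs limit the precision of their fold changes.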
